A study of Mus musculus with 71 samples.

Results

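Cocaine self-administration was compared with saline self-administration in the nucleus accumbens (NAc) of mice after 28 days of abstinence. The members were the 12 RNA-seq libraries of this region and time point, 6 after cocaine and 6 after saline, out of 71 libraries in the study, and all genes with enough counts in them. All mice of these groups were adult wild type mice, C57BL/6 in the labels and C57BL/6J in the study's methods, and RNA was taken from micro-punches of the region, so that each library mixes all cell types of the punch. Mice of both groups received a jugular catheter and self-administered cocaine or saline in daily sessions, and were then kept without the drug for 28 days. The study compared the groups to find genes whose expression differs long after the last intake. The labels do not say whether a library came from 1 mouse or from a pool, so the tests measure the spread between libraries.

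The NAc is the ventral part of the striatum and receives dopamine from the ventral tegmental area (VTA). Nearly all of its neurons are GABAergic medium spiny neurons, which carry either the dopamine receptor D1 or D2 and release the peptides dynorphin and substance P or enkephalin. Cocaine blocks the reuptake of dopamine. With repeated intake it is known to alter transcription in these neurons, and part of this persists into abstinence.

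Between 24522598 and 49700932 reads were counted on genes in the cocaine libraries, and between 30141636 and 42002562 in the saline libraries. Levels are given as CPM, counts relative to library size, scaled by the TMM method of edgeR. The defining genes of the tissue were present in every library. Drd1a, the D1 receptor, was between 193 and 317 CPM (median 275) after saline and between 219 and 337 CPM (median 249) after cocaine. Levels of Drd2 ran between 190.3 and 320.5 CPM (median 261) after saline and between 209 and 294 CPM (median 229) after cocaine, and those of Penk, the enkephalin precursor, between 1151 and 1913 CPM (median 1576) after saline and between 1199 and 1912 CPM (median 1602) after cocaine. The Y-linked genes Ddx3y, Uty, Kdm5d and Eif2s3y passed the filter on low counts and Xist did not, with 26 counts over all 12 libraries, so all 12 libraries had the pattern of male tissue, while the study used mice of both sexes.

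The libraries also differed in ways that their groups do not define. The summed level of 6 genes of cortical excitatory neurons, such as Slc17a7 and Neurod6, which the NAc itself expresses little, was between 62.9 and 543 CPM (median 187) after saline and between 13 and 628 CPM (median 72.5) after cocaine. All 6 of them were lower on average after cocaine (median log2 fold change -0.58), with 0 at an unadjusted p under 0.05. The 5 haemoglobin and haem synthesis genes summed to between 66.2 and 389 CPM (median 103) after saline and between 58.3 and 99.9 CPM (median 84.9) after cocaine, and saline library 4 stood apart with the highest value. The genes with the most GC in their transcripts lay 0.156 above their mean on the log2 scale in saline library 1, the largest deviation of any library. The part of these differences in the results below was not tested beyond the values given beside them. In bulk tissue, fewer cells of a type and less RNA per cell cannot be told apart.

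**Figure D1:**
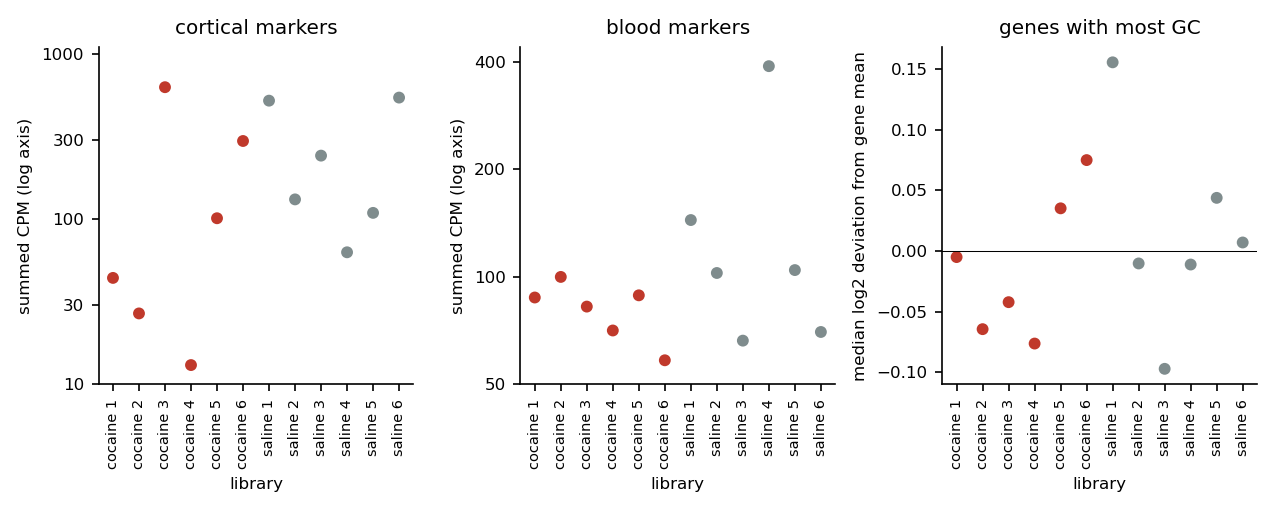
Summed level of 6 cortical neuron markers and of 5 blood markers (CPM, log axes) and the median log2 deviation of the fifth of genes with the most GC, in each library. Red points are cocaine libraries and grey points saline libraries. Cortical markers are high in cocaine library 3 and saline libraries 1 and 6, and blood markers in saline library 4.

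No gene passed the test. Of 37681 genes in the table, 16295 had enough counts, and 0 of these (0.0%) had an adjusted p under 0.05 (edgeR quasi-likelihood test with Benjamini-Hochberg adjustment), the smallest being 0.592. At an unadjusted p under 0.05 there were 1102 genes (6.76%), and 544 genes (3.34%) were higher after cocaine and 558 (3.42%) were lower. DESeq2, a second tool with another model of the spread, called 20 of the 12820 genes it kept (0.156%), 13 of them higher (0.101%) and 7 lower (0.0546%). These calls depended on single libraries. Leaving out 1 library at a time gave between 0 calls (without saline library 5) and 95 calls (without saline library 2). Without the 3 most cortical libraries DESeq2 called 10 genes, 2 of them among the 20, and with the cortical markers as a covariate it called 81, 13 of them among the 20. The 2 groups did not overlap for 36 genes (0.221%), with 14 of these higher (0.0859%) and 22 lower (0.135%). With 6 against 6 libraries, some of 16295 genes are apart without any effect of cocaine, so a lack of overlap is no test. In absolute size, the 20 log2 fold changes lay between 0.156 and 0.730. Values of single genes below are therefore descriptions of levels and of differences that miss the threshold of the main test. A gene said below to have an unadjusted p under 0.05 had it in edgeR. Values written with ± are log2 fold changes of cocaine over saline with their SE. Over the 114 genes picked by the rule for named genes, the adjusted p in edgeR lay between 0.592 and 0.960. In every list below, the share of members at an unadjusted p under 0.05 is to be read against 3.34% higher and 3.42% lower over all genes. Those shares belong to the main fit, and list counts under other settings have their own background. Over all genes, 833 were higher and 901 lower with the cortical covariate. The numbers were 589 and 495 with a correction for the GC content of transcripts (14679 genes), and 520 and 628 without the 3 most cortical libraries. With 1 library left out they lay between 313 and 726 and between 389 and 768.

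**Figure D2:**
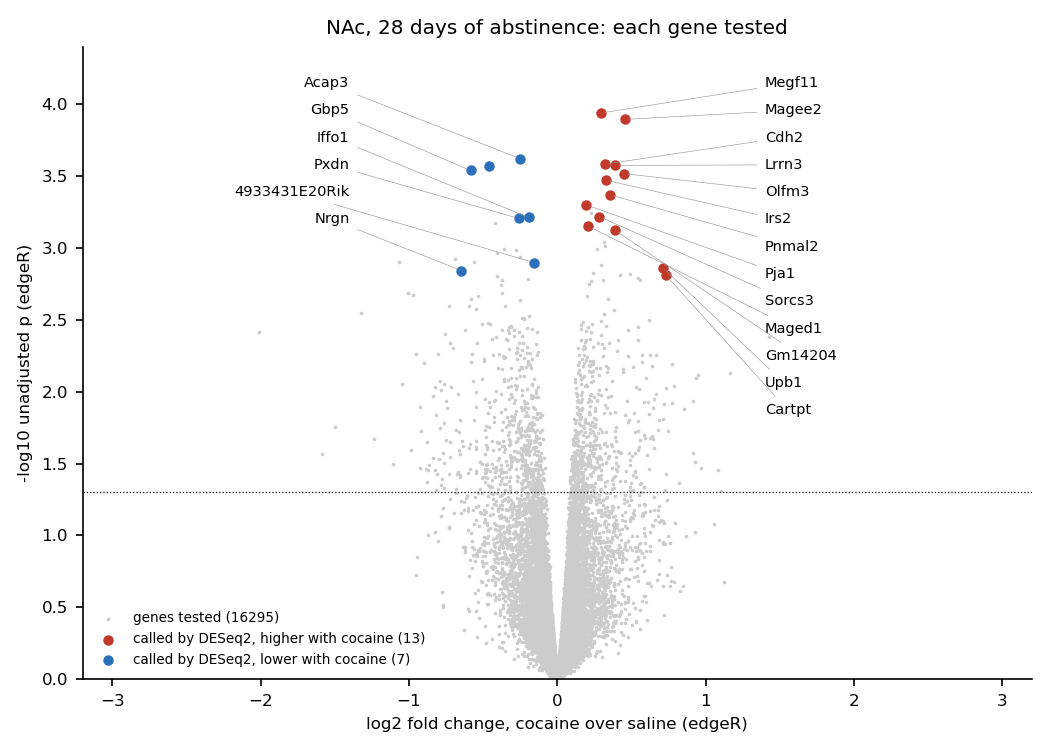
Each of the 16295 genes tested, by its log2 fold change of cocaine over saline (horizontal) and the −log10 of its unadjusted p in edgeR (vertical). The 13 red and 7 blue points are the genes called by DESeq2, most of them named at the sides, and the dotted line marks an unadjusted p of 0.05. No point lies far above the rest.

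Cartpt, which codes for the cocaine- and amphetamine-regulated transcript peptide of the NAc (ENSMUSG00000021647, chromosome 13, 100668439 to 100670638, minus strand, mm9), had among the largest differences of the genes called by DESeq2. It was between 13.9 and 30.8 CPM (median 15.9) after saline and between 24.2 and 37.3 CPM (median 35.3) after cocaine. Each cocaine library exceeded the mean of the saline group and 4 were higher than every saline library, while saline libraries 1 and 2 lay within the range of the cocaine group. The log2 fold change was 0.73 ± 0.19 (SE), and it stayed between 0.65 and 0.90 with any 1 library left out. The adjusted p was 0.592 in edgeR and 0.0494 in DESeq2, and over all alternatives it lay between 2.25e-06 and 0.782. With the cortical covariate the log2 fold change was 0.82. The 250 bases before the start of the Cartpt gene (RefSeq, build GRCm38.p6, chr13:99900684-99900933, minus strand) hold 1 cAMP response element, TGACGTCA, the site bound by CREB. The element is printed in capitals, and is shown because CREB is known to act downstream of dopamine D1 receptors in this tissue. The same letters were found on either strand in 1.55% of 32851 such windows.
Cartpt: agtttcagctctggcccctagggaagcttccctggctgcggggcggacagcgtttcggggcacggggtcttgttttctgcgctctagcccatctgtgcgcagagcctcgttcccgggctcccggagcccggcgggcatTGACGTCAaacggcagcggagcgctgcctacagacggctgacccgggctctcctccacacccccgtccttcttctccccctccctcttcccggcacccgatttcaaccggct

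Neuropeptide genes as a list, Cartpt among them, gave values on both sides. Of 16 tested, 3 had an unadjusted p under 0.05 and were higher (Cartpt, Nts and Pdyn) and 1 was lower (18.8% and 6.25%, against 3.34% and 3.42% of all genes), with a median log2 fold change of 0.07 over the list and 0.00 over all genes. Nts, the neurotensin precursor, was between 12 and 24.6 CPM (median 18.6) after saline and between 18.2 and 33.8 CPM (median 23.6) after cocaine, and 5 of 6 cocaine libraries exceeded the mean of the saline group. Pdyn, the dynorphin precursor of D1 neurons, was between 260.1 and 336 CPM (median 313) after saline and between 291 and 399.5 CPM (median 360.1) after cocaine. The log2 fold changes were 0.46 ± 0.16 (SE) for Nts and 0.22 ± 0.09 (SE) for Pdyn, and the groups overlapped for both. Trh, the precursor of thyrotropin-releasing hormone, was between 6.83 and 9.63 CPM (median 8.92) after saline and between 4.36 and 8.17 CPM (median 6.83) after cocaine, with a log2 fold change of -0.33 ± 0.14 (SE). Penk and Tac1, the abundant peptide precursors of D2 and D1 neurons, gave -0.03 and 0.10. The counts of the list ranged from 2 to 3 higher and 0 to 1 lower with any library left out.

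Megf11 led the higher side by p. It codes for a transmembrane protein with EGF repeats that is known for the even spacing of retinal neurons. The gene had the smallest p of all and was between 16.9 and 18.7 CPM (median 18.5) after saline and between 20.8 and 25.2 CPM (median 22.1) after cocaine, so that the groups did not overlap (log2 fold change 0.29 ± 0.06, SE). Lrrn3, a leucine-rich repeat membrane protein of neurons, was between 67.4 and 92.1 CPM (median 78.2) after saline and between 94.5 and 124 CPM (median 105) after cocaine, again with no overlap (0.39 ± 0.08, SE). Cdh2, which codes for N-cadherin, an adhesion molecule of synapses, was between 63.8 and 81.3 CPM (median 74.9) after saline and between 81.9 and 99.5 CPM (median 95.5) after cocaine. Its groups were also apart, although the highest saline library and the lowest cocaine library differed little. Olfm3, a secreted olfactomedin of neurons, was between 24.8 and 37.8 CPM (median 31.6) after saline and between 37.7 and 46.1 CPM (median 42.7) after cocaine, and 5 of 6 cocaine libraries lay above every saline library. Sorcs3, a sorting receptor of the sortilin family found at synapses, was between 43.2 and 55.4 CPM (median 54) after saline and between 57.9 and 68.4 CPM (median 65.8) after cocaine, with no overlap and saline library 5 at the low end. The log2 fold changes of Cdh2, Olfm3 and Sorcs3 were 0.32 ± 0.07, 0.45 ± 0.10 and 0.28 ± 0.07 (SE). All 5 genes were called by DESeq2.

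**Figure D3:**
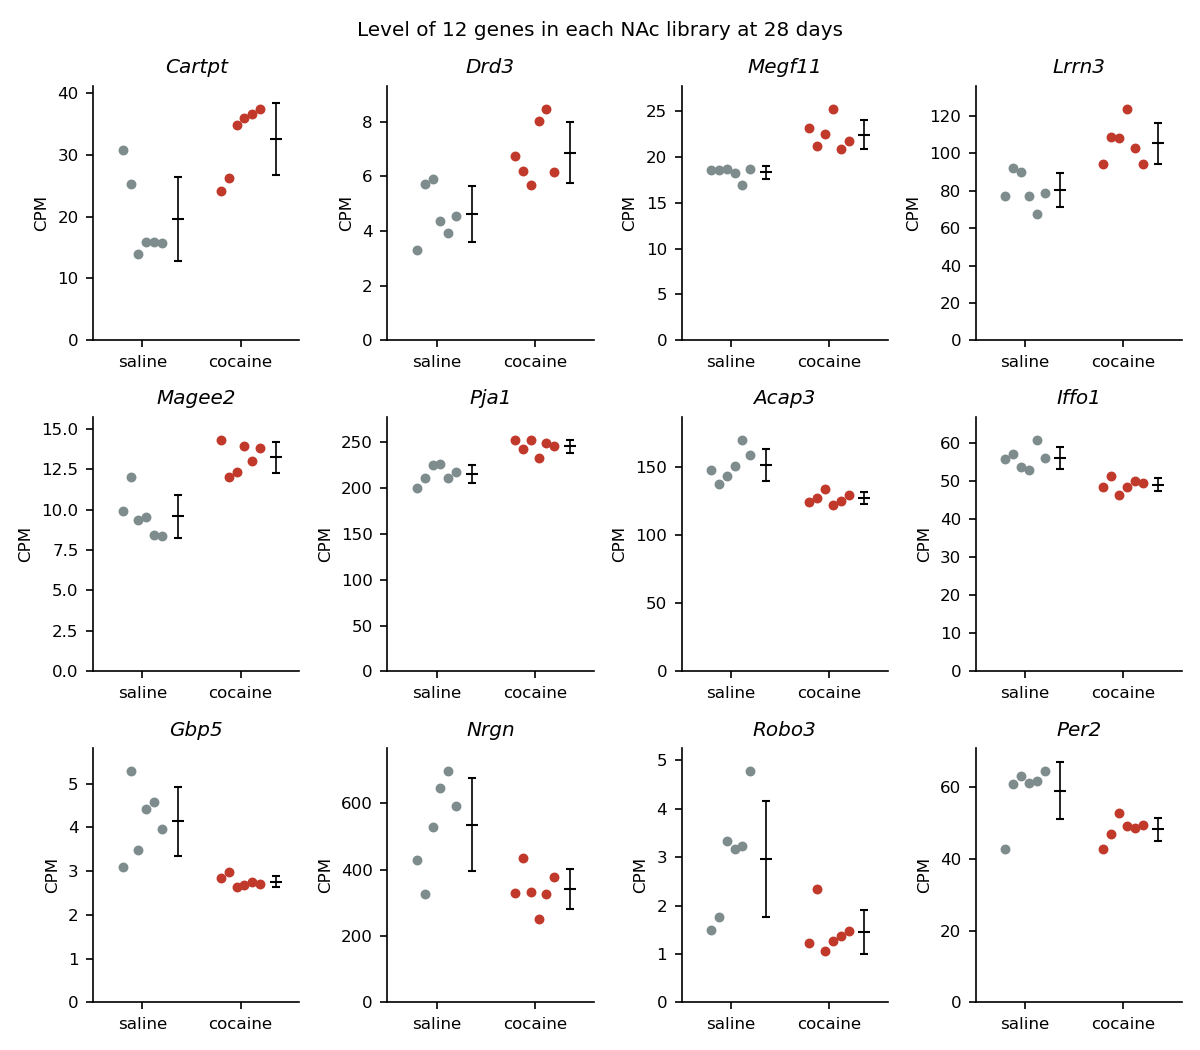
Level of 12 genes in each library (CPM, each vertical axis from 0), with saline in grey and cocaine in red. The black marks give the mean and the SD of 6 libraries. The groups do not overlap for Megf11, Lrrn3, Pja1, Acap3, Iffo1 and Gbp5, and they overlap for Cartpt, Drd3, Magee2, Nrgn, Robo3 and Per2.

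The remaining genes that DESeq2 called as higher had other roles. Irs2, which couples the insulin receptor to its kinases, was between 33.6 and 42.9 CPM (median 38.2) after saline and between 40.3 and 52.7 CPM (median 47.7) after cocaine (log2 fold change 0.33 ± 0.07, SE). Pja1, an X-linked ubiquitin ligase, was between 199.7 and 226 CPM (median 214) after saline and between 233 and 252 CPM (median 247) after cocaine, a small difference of 0.19 ± 0.04 (SE) with no overlap. Pnmal2, a gene of the paraneoplastic antigen family, was between 249.95 and 351 CPM (median 275) after saline and between 329.5 and 395 CPM (median 369) after cocaine (0.36 ± 0.08, SE). Its groups overlapped in the upper saline and lower cocaine libraries. Upb1, an enzyme of pyrimidine breakdown that served here among the markers of D2 neurons, was between 3.96 and 8.25 CPM (median 6.28) after saline and between 8.09 and 15.5 CPM (median 9.78) after cocaine (0.71 ± 0.18, SE), with cocaine library 4 far above the others. The long noncoding RNA Gm14204 was between 16.5 and 23.8 CPM (median 18.5) after saline and between 22.2 and 28.6 CPM (median 23.9) after cocaine, with 3 cocaine libraries above every saline library. Gm5124, a processed transcript of the X chromosome, had groups that did not overlap, between 27 and 30.4 CPM (median 28.8) after saline and between 32.2 and 36.8 CPM (median 32.7) after cocaine. It was not called by DESeq2 (adjusted p 0.053, and between 0.053 and 0.782 over the alternatives that kept all 12 libraries).

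A pair of the called genes belong to the MAGE family, whose proteins bind and steer ubiquitin ligases. Magee2 (ENSMUSG00000031224, chromosome X, 102050294 to 102052606, minus strand, mm9) was between 8.34 and 12 CPM (median 9.45) after saline and between 12 and 14.3 CPM (median 13.4) after cocaine, and 5 of 6 cocaine libraries lay above every saline library (log2 fold change 0.46 ± 0.09, SE). Maged1, the most abundant of the family here and a binding partner of the neurotrophin receptor p75, was between 652 and 762 CPM (median 681) after saline and between 758 and 832 CPM (median 808) after cocaine (0.21 ± 0.05, SE). Ndn, the imprinted family member necdin, was between 109 and 179 CPM (median 114) after saline and between 109 and 239 CPM (median 208) after cocaine (0.57 ± 0.18, SE). Its cocaine group was wide, and the groups overlapped. The whole family was looked at after these values were seen. Of 32 MAGE genes in the table, 8 had enough counts, and 6 of the 8 had an unadjusted p under 0.05 and were higher, against 3.34% of all genes. Those 6 include Magee2, Maged1 and Ndn, which led to the look at the family. Several of the 6, Magee2 and Maged1 among them, lie on the X chromosome, where 9.01% of the genes tested were higher. The count of the family therefore shares members with that of the X chromosome, and these counts are not independent. The 3 further members were Maged2 (0.20), Mageh1 (0.16) and Magee1 (0.17). Magel2 and Ndnl2 were at 0.37 and 0.08 and did not reach that p. The summed level of the 8 genes was between 1024 and 1214 CPM after saline and between 1229 and 1391 CPM after cocaine, so that the 2 groups of sums were apart. The count was 6 with any 1 library left out, 6 with the cortical covariate and 5 without the 3 most cortical libraries. After 1 day of abstinence the median log2 fold change of the family in the NAc was -0.08.

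On the lower side, DESeq2 called 7 genes. Acap3, which inactivates Arf GTPases, was between 137 and 169.8 CPM (median 149) after saline and between 122 and 134 CPM (median 126) after cocaine, and the groups did not overlap (log2 fold change -0.25 ± 0.05, SE). Gbp5, an interferon-induced GTPase, was between 3.1 and 5.28 CPM (median 4.2) after saline and between 2.63 and 2.98 CPM (median 2.72) after cocaine (-0.58 ± 0.12, SE), and its 6 cocaine libraries were close to each other below all saline libraries. Iffo1, an intermediate filament protein of the nucleus, was between 52.8 and 60.7 CPM (median 55.8) after saline and between 46.3 and 51.3 CPM (median 48.9) after cocaine (-0.19 ± 0.04, SE), and the long noncoding RNA 4933431E20Rik was at -0.16 ± 0.04 (SE). Neither overlapped. Pxdn, which crosslinks collagen IV in basement membranes, was between 83.8 and 97.4 CPM (median 92.3) after saline and between 69 and 87.7 CPM (median 75.7) after cocaine (-0.26 ± 0.06, SE). Nrgn, neurogranin, a calmodulin-binding protein of dendritic spines, had the largest difference of the 7. It was between 325 and 697 CPM (median 560.2) after saline and between 251 and 434 CPM (median 332) after cocaine, and 1 cocaine library lay below every saline library (-0.65 ± 0.17, SE). Nrgn is also abundant in cortical neurons, whose markers varied between libraries. With the cortical covariate its log2 fold change was -0.65.

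Outside the genes called by DESeq2, the 12 smallest p of the lower side belonged in part to Rgs5, Clec14a and Lpar6. Rgs5, a marker of pericytes, was between 99.7 and 128 CPM (median 121) after saline and between 89 and 109 CPM (median 96.5) after cocaine (-0.28 ± 0.07, SE). Clec14a, a lectin of endothelial cells, was between 4.82 and 6.69 CPM (median 5.57) after saline and between 3.69 and 4.96 CPM (median 4.22) after cocaine (-0.41 ± 0.10, SE). Lpar6, a receptor for lysophosphatidic acid, was between 3.78 and 5.35 CPM (median 4.19) after saline and between 3.1 and 3.62 CPM (median 3.17) after cocaine, with no overlap (-0.42 ± 0.10, SE). Others were Pitpnm3, a lipid transfer protein, at -0.36 ± 0.09 (SE), 6720463M24Rik at -0.69 ± 0.17 (SE) and H2-Q6 at -1.06 ± 0.27 (SE).

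Drd3 stood out among the dopamine signalling genes. Of 22 tested, 2 were higher at an unadjusted p under 0.05 and 0 lower (9.09% and 0.0%, against 3.34% and 3.42% of all genes). With the cortical covariate 3 were higher and 6 lower, and without saline library 1 there were 1 higher and 4 lower. Drd3, the D3 receptor, which is concentrated in the ventral striatum, was between 3.31 and 5.92 CPM (median 4.46) after saline and between 5.68 and 8.46 CPM (median 6.47) after cocaine. Each cocaine library exceeded the mean of the saline group and 5 were higher than every saline library, with a log2 fold change of 0.56 ± 0.15 (SE). Prkar1a, a regulatory subunit of protein kinase A, was between 557 and 609.8 CPM (median 591) after saline and between 604 and 649 CPM (median 630.2) after cocaine (0.10 ± 0.04, SE). Drd1a and Drd2 were at -0.07 ± 0.13 and -0.16 ± 0.12 (SE). Both lay within the spread between libraries. The levels of Ppp1r1b, which codes for DARPP-32, the phosphatase inhibitor of medium spiny neurons, were between 1493 and 2793 CPM (median 1977) after saline and between 1439.5 and 2226 CPM (median 1726) after cocaine (-0.22 ± 0.14, SE).

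Markers of medium spiny neurons as a whole had 13 of 15 members at a log2 fold change below 0 (median -0.13), and 1 of them had an unadjusted p under 0.05. This was Rasd2, also called Rhes, a striatal GTPase, between 453 and 971 CPM (median 695) after saline and between 487 and 674 CPM (median 517) after cocaine (-0.39 ± 0.16, SE). The count of lower members was 9 with the cortical covariate, 4 without saline library 1, which was among the libraries with the most cortical RNA, and 0 without saline library 4. Among 8 D1 markers 2 were higher, Pdyn and Isl1, a transcription factor of D1 neurons, between 10.8 and 17.1 CPM (median 13.6) after saline and between 13.9 and 20.4 CPM (median 16.5) after cocaine (0.30 ± 0.11, SE). Neither kept a p under 0.05 with the cortical covariate. Among 6 D2 markers Upb1 was the 1 with a p under 0.05. Markers of cholinergic interneurons (4 tested) had a median of 0.12 and 0 with a p under 0.05.

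Most genes of GABA synthesis and reception lay above 0. Of 22 tested, 18 had a log2 fold change above 0 (median 0.13) and 4 an unadjusted p under 0.05, all higher (18.2%, against 3.34% of all genes). Gad2, which makes GABA at terminals, was between 567 and 745 CPM (median 675) after saline and between 702 and 873 CPM (median 779.9) after cocaine (0.24 ± 0.07, SE). Gabrg1, a GABA-A receptor subunit, was between 29.1 and 43.9 CPM (median 32.7) after saline and between 35.3 and 52.7 CPM (median 39.5) after cocaine (0.32 ± 0.11, SE). Gad1, the other GABA-making enzyme, was at 0.18. With any library left out the count was between 4 and 8 (without cocaine library 2), and with the cortical covariate it was 3.

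Glutamate receptor genes were centred on no difference, with a median of 0.00 over 35 genes. Grik5, a kainate receptor subunit, was between 257 and 345 CPM (median 278) after saline and between 228 and 275 CPM (median 244) after cocaine (-0.22 ± 0.07, SE), and Cacng3, an AMPA receptor auxiliary subunit, was at -0.13 ± 0.05 (SE). They were the 2 members below an unadjusted p of 0.05, both lower (5.71%, against 3.42%). With the cortical covariate 4 were lower and 3 higher, and with a correction for the GC content of transcripts 1 was lower. Among 27 genes of the postsynaptic scaffold and synaptic adhesion, 2 were lower (7.41%) and 0 higher. Dlgap3, a scaffold protein enriched in the striatum, was between 419 and 658 CPM (median 526) after saline and between 410.5 and 512 CPM (median 454) after cocaine (-0.26 ± 0.10, SE). Shank3, a master scaffold of excitatory synapses, was between 415 and 617 CPM (median 494) after saline and between 389.9 and 481 CPM (median 441) after cocaine (-0.23 ± 0.09, SE). The groups overlapped for both. With the GC correction neither had an unadjusted p under 0.05, and 0 of the 27 were lower. The lower count was 4 with the cortical covariate and 1 without cocaine library 3.

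Channel genes went in both directions. Of 79 potassium channel genes, 4 were higher and 6 lower at an unadjusted p under 0.05 (5.06% and 7.59%). The higher count was 1 without cocaine library 3 and 8 without cocaine library 2. With the GC correction 6 were higher and 2 lower, so that the balance turned, and with the cortical covariate 8 were higher and 10 lower. Kcnt1, a sodium-activated channel, was between 209.9 and 253 CPM (median 231) after saline and between 169 and 222 CPM (median 191) after cocaine (-0.25 ± 0.07, SE), and Kcnh3 and Kcnh4, channels of the ether-a-go-go family, were at -0.20 ± 0.06 and -0.38 ± 0.13 (SE). Kcna3 was between 5.35 and 7.36 CPM (median 6.59) after saline and between 7.34 and 9.4 CPM (median 7.95) after cocaine (0.32 ± 0.09, SE), and Kcnh1 and the channel-interacting protein Kcnip1 were at 0.15 ± 0.06 and 0.39 ± 0.17 (SE). Of 29 voltage-gated sodium and calcium channel genes, 2 were higher and 6 lower (6.90% and 20.7%, against 3.34% and 3.42%). The lower ones included Cacnb3, a calcium channel beta subunit, at -0.20 ± 0.08 (SE), and the T-type channels Cacna1i and Cacna1h at -0.17 ± 0.07 and -0.18 ± 0.08 (SE). The higher ones were Cacna2d2 at 0.24 ± 0.10 (SE) and Scn11a at 0.62 ± 0.27 (SE), the latter at under 1 CPM in all libraries. The count of lower genes was 2 without cocaine library 5 and 7 without saline library 2, and that of higher genes was 0 without cocaine library 1 and 0 with the cortical covariate. Lower genes numbered 5 with the cortical covariate. With the GC correction 2 were higher and 4 lower.

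Clock genes lay mostly below 0, with 14 of 19 on that side. Of the 19, 7 had an unadjusted p under 0.05, all of them lower (36.8%, against 3.42% of all genes), and the median log2 fold change was -0.15. Per2, which codes for a repressor of the circadian loop, was between 42.9 and 64.5 CPM (median 61.5) after saline and between 42.7 and 52.7 CPM (median 48.9) after cocaine. Saline library 1 stood apart at the level of the cocaine group, and the other saline libraries lay above all cocaine libraries (-0.29 ± 0.09, SE). Bhlhe41, also called Dec2, another repressor of the loop, was between 52.4 and 65.1 CPM (median 60.8) after saline and between 42.7 and 57.9 CPM (median 51.2) after cocaine (-0.24 ± 0.08, SE). Tef, an output factor of the PAR bZIP family, was between 603 and 811 CPM (median 724) after saline and between 590.4 and 673 CPM (median 636) after cocaine (-0.17 ± 0.06, SE). The remaining 4 were Gm129 (also named Ciart) at -0.55, the PAR bZIP factors Dbp at -0.32 and Hlf at -0.23, and Per3 at -0.21. Clock and Arntl, the activators of the loop, were at 0.03 and 0.15 and did not reach an unadjusted p of 0.05. The count of lower genes was between 3 (without saline library 5) and 11 (without saline library 1) and 9 with the cortical covariate. The labels do not give the hour at which the tissue was taken. Of 17 clock genes with a promoter window, 5 held the E-box CACGTG, bound by the products of Clock and Arntl, in the 250 bases before a start (29.4%, against 6.86% of all 27025 genes with a window). The 17 genes had 23 windows in all, so that some had more than 1 chance to hold it. Holders were Bhlhe41, Ciart, Cry1, Per1 and Tef, and Cry1 and Per1 are not among the 7 lower genes. The list was drawn from known genes of the loop, so this share tells nothing about cocaine. The window of Bhlhe41 (GRCm38.p6, chr6:145865421-145865670, minus strand) is shown with its E-box in capitals.
Bhlhe41: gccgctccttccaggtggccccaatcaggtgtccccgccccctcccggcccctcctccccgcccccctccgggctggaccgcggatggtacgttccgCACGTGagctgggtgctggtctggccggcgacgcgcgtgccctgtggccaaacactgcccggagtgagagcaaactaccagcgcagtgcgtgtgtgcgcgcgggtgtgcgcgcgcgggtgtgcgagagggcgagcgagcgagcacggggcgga

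Genes of the interferon response and of MHC class I also lay mostly below 0, with 16 of 20 on that side. Of the 20, 6 had an unadjusted p under 0.05 and all were lower (30% against 3.42%), with a median of -0.18. B2m, the light chain of all class I molecules, was between 42.4 and 57.1 CPM (median 50.7) after saline and between 39.5 and 47.2 CPM (median 43.8) after cocaine (-0.21 ± 0.07, SE). Stat2, which relays the interferon signal to the nucleus, was between 24.9 and 27.5 CPM (median 26.3) after saline and between 19.99 and 26.9 CPM (median 22.9) after cocaine (-0.17 ± 0.06, SE), and 5 of 6 cocaine libraries lay below every saline library. Ifit3, an interferon-induced antiviral protein, was between 7.79 and 13.8 CPM (median 11.4) after saline and between 6.39 and 10.7 CPM (median 7.88) after cocaine (-0.39 ± 0.15, SE). The others were H2-D1, a class I heavy chain, at -0.24, Nlrc5, the activator of class I genes, at -0.45, and Irf7 at -0.76. With any library left out the count was between 2 (without cocaine library 2) and 9 (without saline library 3), and it was 7 with the cortical covariate.

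Families related to this list were looked at after the values were seen. Of 8 guanylate-binding protein genes with enough counts, 3 were lower at an unadjusted p under 0.05 (37.5%, and 5 with the GC correction) and 0 higher: Gbp5, described above, Gbp3 at -0.49 and Gbp4 at -0.42. Of 10 class I heavy chain genes, 3 were lower (30%) and 1 higher (10%). H2-Q6 was between 0.75 and 2.27 CPM (median 1.59) after saline and between 0.487 and 0.895 CPM (median 0.674) after cocaine, and H2-Q7 was between 1.07 and 2.95 CPM (median 1.5) after saline and between 0.61 and 1.23 CPM (median 0.789) after cocaine (-0.97 ± 0.26, SE). Both are near-identical copies of their neighbours, so that reads may have been divided between them, and both were near 1 CPM. The higher gene was at 0.51, the entry ENSMUSG00000091705 of H2-Q2. A second entry with that symbol had too few counts to be tested. The higher count was 2 with the cortical covariate. The median log2 fold change of 16 microglia markers, the resident immune cells that express many of these genes, was -0.03, with 13 of 16 below 0 and 0 at an unadjusted p under 0.05. Markers of endothelial and blood cells were also below 0. All 13 endothelial markers lay below 0 (median -0.15), 3 of them at an unadjusted p under 0.05, and all 5 blood markers were lower. Endothelial markers summed to between 469.7 and 611 CPM after saline and between 458 and 499 CPM after cocaine, and their part in the interferon values was not tested. Promoter windows of 14 genes of the interferon list were available, and 6 of these genes held the interferon-stimulated response element (GAAA, any pair of bases, GAAA) on either strand (42.9%, against 3.46% of all genes with a window), as did the window of Gbp5. The 14 genes had 16 windows in all. Holders were B2m, Bst2, Ifit1, Ifit3, Isg15 and Stat2, and Bst2, Ifit1 and Isg15 are not among the 6 lower genes of the list. The list was drawn from known interferon and class I genes, so this share tells nothing about cocaine. B2m (chr2:122147437-122147686, plus strand), Ifit3 (chr19:34583279-34583528, plus strand) and Gbp5 (chr3:142496684-142496933, plus strand, all GRCm38.p6) are shown with this element in capitals. It reads as its reverse complement where it lies on the other strand.
B2m: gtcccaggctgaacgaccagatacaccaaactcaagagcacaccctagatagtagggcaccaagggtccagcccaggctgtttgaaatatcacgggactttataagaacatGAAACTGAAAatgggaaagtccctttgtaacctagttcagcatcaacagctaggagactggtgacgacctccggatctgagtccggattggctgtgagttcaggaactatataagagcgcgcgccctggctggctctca
Ifit3: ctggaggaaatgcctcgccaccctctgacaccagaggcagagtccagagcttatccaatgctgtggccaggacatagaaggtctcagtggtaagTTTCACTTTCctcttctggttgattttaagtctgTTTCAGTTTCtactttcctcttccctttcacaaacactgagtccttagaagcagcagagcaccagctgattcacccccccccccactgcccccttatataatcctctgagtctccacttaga
Gbp5: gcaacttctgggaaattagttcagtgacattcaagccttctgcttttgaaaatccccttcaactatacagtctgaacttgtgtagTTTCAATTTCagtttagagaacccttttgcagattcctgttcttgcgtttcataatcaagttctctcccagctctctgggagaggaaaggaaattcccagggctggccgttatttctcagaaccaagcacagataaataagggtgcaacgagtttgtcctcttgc

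Nr4a1, the nuclear receptor on which the study centres and an immediate early gene, showed no difference beyond the spread between libraries. It was between 41.7 and 110.1 CPM (median 56.9) after saline and between 31.6 and 127 CPM (median 74.6) after cocaine (log2 fold change 0.13 ± 0.30, SE), with a 95% interval of the log2 fold change from -0.461 to 0.722. Its sign turned to -0.027 without the 3 most cortical libraries. Of 25 activity-regulated genes, among them Fos at 0.61 ± 0.47 (SE), Arc at 0.32 ± 0.34 (SE) and Npas4 at 0.20 ± 0.22 (SE), 0 had an unadjusted p under 0.05 in either direction. The median was 0.11. With the cortical covariate, 4 of them were higher at an unadjusted p under 0.05. None of the 9 genes of the study with a promoter window held the NR4A response element AAAGGTCA in the 250 bases before a start, which 1.55% of all genes with a window hold. At that share, a count of 0 among 9 genes tells nothing about binding by Nr4a1, and Per2 had no window. By chromatin immunoprecipitation from the NAc, the study reports Nr4a1 at the promoters of Nr4a1, Cbl, Per2 and Cartpt.

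The other genes that the study followed gave values on both sides. The study chose several of them with results of its own libraries known, at 28 days or at 1 day, so their count is not independent of the values. It also reports qPCR in a separate cohort of mice. There, Cartpt, Per2, E2f1, Mark2, Ndn and Robo differed between cocaine and saline at 28 days. That qPCR does not enter the values given here. It writes Robo without a number, and Robo1, Robo2 and Robo3 were all taken here. Of the 10, with Cartpt and Nr4a1 included, 3 were higher at an unadjusted p under 0.05 (Cartpt, Ndn and Robo1) and 4 were lower (Robo3, E2f1, Per2 and Mark2). Robo3, a receptor of the Robo family that regulates midline crossing, was between 1.5 and 4.77 CPM (median 3.19) after saline and between 1.06 and 2.34 CPM (median 1.32) after cocaine (-1.004 ± 0.27, SE). Its levels were low, and cocaine library 2 lay far above the rest of its group. E2f1, a cell cycle transcription factor, was between 10.3 and 16.3 CPM (median 12.5) after saline and between 8.28 and 11.2 CPM (median 10.1) after cocaine (-0.38 ± 0.11, SE). Mark2, a kinase of microtubule-associated proteins, was between 144 and 164 CPM (median 151) after saline and between 132 and 141 CPM (median 139) after cocaine, and the groups did not overlap (-0.15 ± 0.04, SE). With the GC correction Mark2 was at -0.123 and no longer had an unadjusted p under 0.05. With that correction 3 of the 10 were higher and 3 lower. Robo2 and the ubiquitin ligase Cbl were at -0.23 ± 0.14 and 0.12 ± 0.11 (SE), within their spread.

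The genes of the memory term of the study, 8 of which are reported here, were chosen by the study from the same libraries. B4galt2, a galactosyltransferase, was between 76.3 and 92.1 CPM (median 84.2) after saline and between 68.3 and 78.8 CPM (median 72.4) after cocaine (-0.19 ± 0.05, SE). Hrh3, the histamine H3 autoreceptor, was between 167 and 230.1 CPM (median 187) after saline and between 144 and 179 CPM (median 163) after cocaine (-0.26 ± 0.08, SE), and Slc8a2, a sodium and calcium exchanger, was at -0.17 ± 0.08 (SE). Glp1r, the receptor of glucagon-like peptide 1, was between 0.939 and 1.92 CPM (median 1.06) after saline and between 1.17 and 2.9 CPM (median 1.89) after cocaine (0.65 ± 0.23, SE), and it was higher, as was Sorcs3. Itga5 and Slc24a2 were at -0.37 ± 0.18 and -0.24 ± 0.13 (SE) and did not reach an unadjusted p of 0.05. Together with Shank3, 4 of the 8 were lower and 2 higher at an unadjusted p under 0.05. With the GC correction 3 were lower and 2 higher.

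Axon guidance genes had 4 of 33 higher and 1 lower at an unadjusted p under 0.05 (12.1% and 3.03%, against 3.34% and 3.42%), with a median of 0.12. Ntn1, the attractant netrin 1, was between 44.2 and 70.6 CPM (median 48.2) after saline and between 55.9 and 84.7 CPM (median 67.4) after cocaine (0.37 ± 0.12, SE). Slit2, a guidance ligand, was between 12.5 and 27.9 CPM (median 20.1) after saline and between 20.1 and 47 CPM (median 29.1) after cocaine (0.58 ± 0.20, SE). Its receptor Robo1 was between 74.4 and 95.1 CPM (median 87.9) after saline and between 86 and 117 CPM (median 101) after cocaine (0.24 ± 0.09, SE). Groups overlapped for all of them. The count of higher genes was 2 without cocaine library 1, 11 without cocaine library 2, 11 with the cortical covariate and 8 with the GC correction.

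Heat shock genes lay above 0 in all 18 cases tested (median 0.15), and 4 had an unadjusted p under 0.05 (22.2%, against 3.34%). Hsp90aa1, the inducible HSP90 chaperone, was between 508 and 701 CPM (median 594) after saline and between 609 and 799 CPM (median 692) after cocaine (0.22 ± 0.08, SE). Hspa8, the constitutive HSP70, was between 1111 and 1392 CPM (median 1220.3) after saline and between 1222 and 1751 CPM (median 1419.9) after cocaine (0.21 ± 0.09, SE), and Hspd1 of mitochondria was at 0.14 ± 0.06 (SE). The count was 1 without cocaine library 1, 7 without saline library 3, 9 with the cortical covariate and 0 without the 3 most cortical libraries.

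Genes that respond to glucocorticoids had 14 of 15 members below 0 (median -0.12) and 1 at an unadjusted p under 0.05. This was Plin4, a lipid droplet protein, between 3.55 and 10.7 CPM (median 4.69) after saline and between 2.34 and 4.92 CPM (median 3.83) after cocaine (-0.66 ± 0.27, SE). The count was 0 without cocaine library 1 and 5 without cocaine library 5, and 3 with the cortical covariate. Of 31 enzymes that write or remove marks on histone H3 lysines 27 and 4, 1 was lower (3.23%, against 3.42%), Setd1a, an H3K4 methyltransferase, at -0.12 ± 0.05 (SE), and 0 with the GC correction. The median of that list was 0.03.

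Among the other cell types of the punch, oligodendrocyte markers had 13 of 14 members below 0 (median -0.08) and 2 at an unadjusted p under 0.05 (14.3%, against 3.42%). They were Mobp, a myelin protein, between 876 and 1009.8 CPM (median 917) after saline and between 702 and 911 CPM (median 767) after cocaine (-0.24 ± 0.07, SE), and Mbp, myelin basic protein, at -0.19 ± 0.08 (SE). The count was 1 without cocaine library 2 and 5 without cocaine library 1. All 13 endothelial markers lay below 0 (median -0.15) and 3 had an unadjusted p under 0.05 (23.1%). Ly6c1 was between 27 and 41.7 CPM (median 32.9) after saline and between 25.5 and 29.8 CPM (median 26.4) after cocaine (-0.31 ± 0.09, SE), and Esam, an endothelial adhesion molecule, was between 17.1 and 24.7 CPM (median 18.2) after saline and between 14.5 and 17.4 CPM (median 15.4) after cocaine (-0.33 ± 0.09, SE). Slco1a4, a transporter of the blood-brain barrier, was at -0.26 ± 0.08 (SE). Their count was between 3 and 6 (without saline library 1), 5 with the cortical covariate and 6 with the GC correction.

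The 5 blood genes were all lower at an unadjusted p under 0.05, with saline library 4 far above the rest. Hbb-b1, a haemoglobin beta chain, was between 33.6 and 201 CPM (median 50.01) after saline and between 28.6 and 49.3 CPM (median 41.6) after cocaine (-0.87 ± 0.37, SE), Hba-a2 was at -0.80 ± 0.33 (SE), and Alas2, which makes haem in red cells, was at -1.11 ± 0.47 (SE). The count was 0 of 5 without saline library 4 and also 0 without cocaine library 4. The haemoglobin genes have near-identical copies, so that single members are uncertain. Astrocyte (12), oligodendrocyte precursor (6) and microglia (16) markers had 0 members at a p under 0.05, with medians of 0.07, 0.07 and -0.03. Of their members, 11, 5 and 3 lay above 0.

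Mural and fibroblast markers were divided, with 2 higher and 2 lower of 14. Col1a2, a chain of collagen I, was between 9.35 and 12.7 CPM (median 10.9) after saline and between 10.2 and 18.5 CPM (median 15) after cocaine (0.41 ± 0.12, SE), and Slc6a13, a transporter of the meninges, was at 0.43 ± 0.17 (SE). Lum was at -0.48 ± 0.21 (SE), and Rgs5 is given above. Of 42 collagens 2 were higher and 2 lower (4.76% each, against 3.34% and 3.42%), with Col25a1 at 0.22 ± 0.09 (SE) beside Col1a2 and the lower Col19a1 and Col11a2 at -0.38 ± 0.10 and -0.27 ± 0.09 (SE). Kl, which codes for klotho and is high in choroid plexus, was between 4.71 and 7.88 CPM (median 5.67) after saline and between 6.78 and 9.8 CPM (median 8.44) after cocaine (0.49 ± 0.13, SE), the 1 of 8 choroid plexus and ependyma genes with a p under 0.05. The summed level of those 8 genes was between 33.5 and 60.1 CPM after saline and between 41.3 and 60.2 CPM after cocaine, while Folr1 and Kcnj13, which define choroid plexus, did not have enough counts to be tested.

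**Figure D4:**
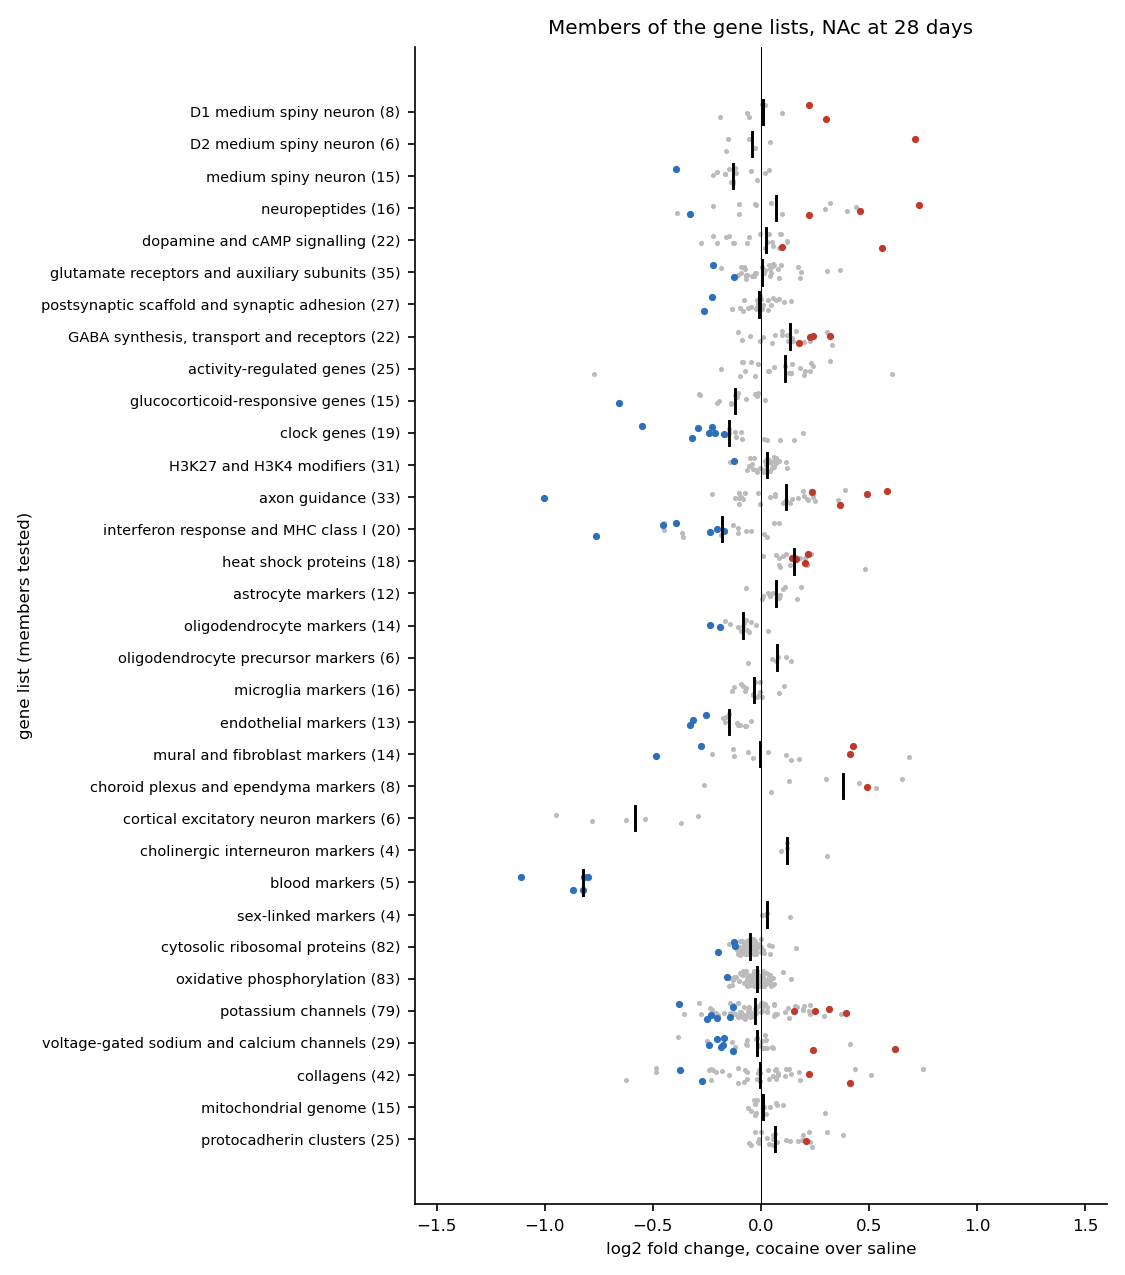
Log2 fold change of cocaine over saline for each member of the gene lists (vertical axis, with the number of members tested). Red and blue points have an unadjusted p under 0.05 and grey points do not, and black bars are list medians. Clock, interferon, endothelial and blood genes lie mostly to the left of 0, and GABA and heat shock genes mostly to the right. Other lists are also one-sided. Glucocorticoid, oligodendrocyte, medium spiny neuron, microglia, cortical and ribosomal genes lie mostly to the left, and astrocyte and choroid plexus genes mostly to the right.

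Large families of basic cell functions had few members at an unadjusted p under 0.05. Cytosolic ribosomal protein genes were one-sided all the same, with 73 of 82 at a log2 fold change below 0 (median -0.05). Of 82 cytosolic ribosomal protein genes 3 were lower (3.66%, against 3.42%), Rpl39 at -0.12 ± 0.05 (SE), Rps4y2 at -0.20 ± 0.09 (SE) and Rpl34 at -0.13 ± 0.06 (SE). These have processed copies elsewhere in the genome, and their count was 0 without cocaine library 1 and 9 without cocaine library 6. Of 83 genes of oxidative phosphorylation 1 was lower (1.20%), Ndufb9 at -0.16 ± 0.07 (SE), and of 15 genes of the mitochondrial genome 0. Of 25 clustered protocadherins, which label single neurons, 1 was higher (Pcdhb3 at 0.21 ± 0.09, SE). Among 324 zinc finger genes 7 were higher and 6 lower (2.16% and 1.85%), under the share of all genes. They included Zfp828, Zfp114 and Zfp503 at 0.16, 0.39 and 0.24 and Zfp46, Zfp523 and Zfp346 at -0.27, -0.17 and -0.14.

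The largest fold changes among genes with a mean of at least 1 CPM and an unadjusted p under 0.05 belonged to genes at low levels, several of them with 1 library far from its group. On the higher side, Slc13a4, a sulphate transporter of the meninges, was between 0.938 and 1.83 CPM (median 1.4) after saline and between 1.34 and 8.18 CPM (median 1.68) after cocaine (0.97 ± 0.41, SE), Fmod, fibromodulin, was between 2.2 and 3.79 CPM (median 3.05) after saline and between 2.98 and 13.1 CPM (median 4.36) after cocaine (0.91 ± 0.32, SE) and Aldh1a2, which makes retinoic acid in meninges, was between 1.19 and 1.9 CPM (median 1.34) after saline and between 1.61 and 5.08 CPM (median 2.03) after cocaine (0.79 ± 0.26, SE). All 3 had their highest level in cocaine library 5. Frem3, an extracellular matrix protein, was between 0.672 and 1.5 CPM (median 0.833) after saline and between 0.943 and 3.54 CPM (median 1.77) after cocaine (0.95 ± 0.31, SE). Igsf1, an X-linked immunoglobulin superfamily gene, was between 2.62 and 10.4 CPM (median 3.15) after saline and between 4.65 and 16.4 CPM (median 9.59) after cocaine (0.93 ± 0.39, SE). On the lower side, Igfn1, known from muscle, was between 0.915 and 6.93 CPM (median 3.75) after saline and between 0.224 and 3.73 CPM (median 1.06) after cocaine (-1.496 ± 0.56, SE). The others were Alas2, H2-Q6, Robo3 and H2-Q7, given above.

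The same contrast was then set beside the NAc after 1 day of abstinence and the VTA and the prefrontal cortex (PFC) after 28 days, which are other libraries. A test of the difference between the effect in the NAc at 28 days and the effect at 1 day, in 1 edgeR model over 24 libraries, called 3 of 16612 genes (0.0181%), with 876 (5.27%) at an unadjusted p under 0.05. Plin4 had a log2 fold change of -0.66 at 28 days and 2.57 at 1 day, a difference of -3.22 ± 0.46 (SE, adjusted p = 0.00477, edgeR). Per2 was at -0.29 and 0.51, a difference of -0.79 ± 0.14 (SE, adjusted p = 0.0381, edgeR). Hif3a, a hypoxia-inducible factor that was named after its values were seen, was at -0.28 and 1.08, a difference of -1.35 ± 0.23 (SE, adjusted p = 0.0381, edgeR). All 3 were higher after cocaine at 1 day and lower at 28 days, and at 28 days none passed the test by itself. At 1 day Plin4 (adjusted p = 0.0199, edgeR) and Hif3a (adjusted p = 0.0122, edgeR) passed it, the 2 genes called of 15878 (0.0126%), and Per2 did not (adjusted p = 0.279, edgeR).

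**Figure D5:**
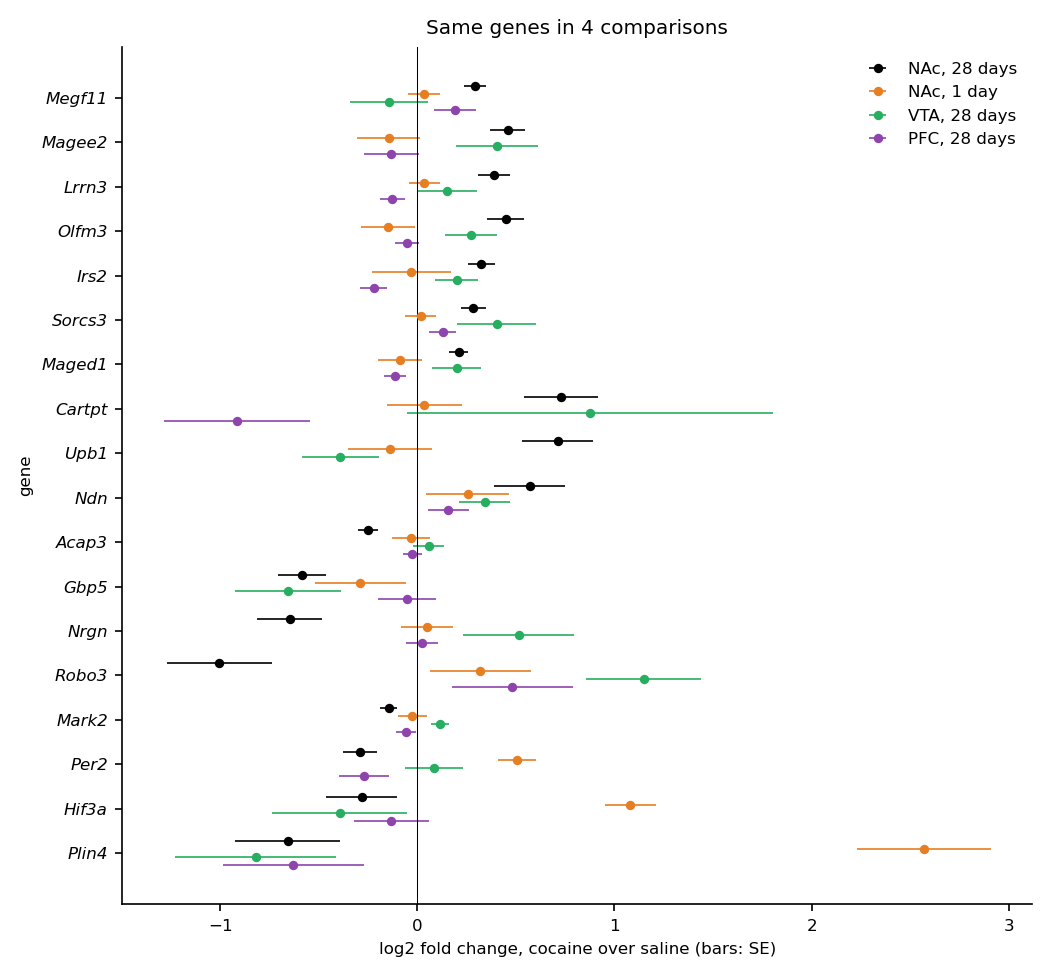
Log2 fold change of cocaine over saline, with its SE, for genes named in the text (vertical axis) in the NAc at 28 days (black), the NAc at 1 day (orange), the VTA at 28 days (green) and the PFC at 28 days (purple). Plin4, Hif3a and Per2 lie to the right of 0 at 1 day and to the left at 28 days in the NAc. Upb1 was not tested in the PFC.

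For the other genes described, the difference between the time points did not pass the test. Cartpt was at 0.04 ± 0.19 (SE) at 1 day, a difference of 0.71 ± 0.29 (SE, adjusted p = 0.928, edgeR). Nrgn was at 0.05 ± 0.13 (SE) and Drd3 at -0.16 ± 0.19 (SE) at 1 day, with adjusted p of 0.832 and 0.846 for the difference. Levels after saline also differed between the 2 time points. The saline mean of Nrgn was 536 CPM at 28 days and 105 CPM at 1 day. For Drd3 the means were 4.63 and 6.71 CPM, and for Cartpt 19.6 and 22.5 CPM. The time of abstinence and the set of libraries cannot be told apart in this comparison. Clock genes had a median of 0.09 at 1 day, the GABA genes -0.02 and the interferon genes -0.21. These medians carry no test.

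The 28-day libraries of the NAc, VTA and PFC share their numbers in the labels, and no label says whether they came from the same mice. The models of the difference took all libraries as independent. The difference from the VTA at 28 days called 0 of 17406 genes (0.0%, edgeR), with 1197 (6.88%) at an unadjusted p under 0.05 and 13 called by DESeq2. The difference from the PFC at 28 days called 0 of 16908 (0.0%, edgeR), with 1071 (6.33%) at an unadjusted p under 0.05 and 1 called by DESeq2. Robo3 was at 1.15 ± 0.29 (SE) in the VTA and 0.48 ± 0.31 (SE) in the PFC. The difference of the NAc from the VTA was -2.19 ± 0.42 (SE, adjusted p = 0.136, edgeR). Cartpt was at 0.87 ± 0.93 (SE) in the VTA and -0.92 ± 0.37 (SE) in the PFC. The MAGE genes had a median of 0.19 in the VTA and -0.07 in the PFC, and the interferon genes -0.61 and -0.09. Clock genes had medians of 0.001 and -0.04, and 2 and 5 of 19 were lower at an unadjusted p under 0.05. Of all genes tested in the NAc and also there, 991 of 15959 and 479 of 15919 were lower. GABA genes had medians of 0.20 and 0.03, and 9 and 1 of 22 were higher, against 836 and 420 of all those genes. These medians carry no test.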

How the data were processed

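RNA was sequenced from micro-punches of the NAc, 6 libraries a group, and the authors deposited raw counts of reads per gene, with STAR 2.4.1d, DESeq2 and edgeR named in the submitters' processing notes. Per the labels, the 28-day columns give region and group but not which labelled sample they hold. The strand setting of the counting is not given in the sources used here. Columns with the authors' own fold changes and p-values were not used, nor were 30 columns in all tables that match no labelled sample. Gene positions are those of mm9, and 37310 of 37681 genes matched the GENCODE annotation of that build.

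Genes were kept with filterByExpr (minimum count 10, total 15), scaled by TMM and tested with the edgeR 4.0.16 quasi-likelihood test on the 12 libraries (R 4.3.3). The SE of a log2 fold change was its size divided by the root of F. Benjamini-Hochberg adjustment ran over all genes tested, at 0.05. DESeq2 1.42.0 and limma 3.58.1 were run as alternatives, with another filter and scaling, each library left out, a replicate block, a cortical covariate and a GC correction. Differences between regions or days came from an interaction term in edgeR, on counts of both tables. Scripts were checked on simulated counts. Promoters were taken from RefSeq, build GRCm38.p6, and matched by symbol. Windows of 250 bases were found for 88 of 114 named genes.

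Named were the genes the study follows, the 12 smallest p in each direction and the 5 largest fold changes in each direction (mean of at least 1 CPM), genes called by DESeq2, and up to 3 members of each list per direction. Other list members given by value, such as Dbp, Gad1, Irf7, Fos, Arc and Ppp1r1b, were named after their values were seen. The members and lists were chosen with earlier results of these data known. Some items are not reported here. Without labels that tie libraries to mice, the p-values measure only the spread between these libraries. The total of counts per library was 24522598 to 49700932, which limits precision for genes near 1 CPM.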

Additional observations from a re-analysis of the deposited data

Results flagged for a closer look

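In 232 groups of 6 libraries, 22 had a library whose gap to its nearest neighbour passed Dixon's critical value, as a share of the range of the group. Chance gives about 1 in 20 groups. Values are CPM.

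In saline library 4, the blood genes Alas2, Hba-a2 and Hbb-b1 stood apart at 15.4, 36.6 and 201 CPM. In cocaine library 5, Slc13a4, Fmod and Aldh1a2, genes of the meninges and matrix, stood apart at 8.18, 13.1 and 5.08 CPM. In saline library 5, Sorcs3, Megf11, Grik5 and Zfp46 were at 43.2, 16.9, 345 and 95.6 CPM, and Per2 in saline library 1 was at 42.9 CPM. In cocaine library 2, Robo3, Itga5, Rasd2 and Col25a1 were at 2.34, 23.9, 674 and 52.7 CPM. In saline library 2, Glp1r, Gabrg1 and Col25a1 were at 1.92, 43.9 and 70.4 CPM. In cocaine library 3, Slc24a2 and Lpar6 were at 502 and 3.62 CPM. Upb1 in cocaine library 4 was at 15.5 CPM, and Rpl34 in cocaine library 6 at 103 CPM.

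The effect of cocaine differed between 28 days and 1 day in the NAc by an interaction term in edgeR for 3 genes. The differences in log2 fold change were -3.22 for Plin4, -1.35 for Hif3a and -0.786 for Per2. With DESeq2 the count was 12.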

How the results depend on the processing

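The count of genes with an adjusted p under 0.05 was 0 with edgeR, 20 with DESeq2 and 85 with the robust likelihood ratio test of edgeR, and 0 with limma-voom. It was 0 to 2 with 1 library left out, the 2 being without saline library 1. The column numbers did not pair the libraries (correlation of same-numbered deviations -0.124 to 0.225), and with the replicate block the count was 0. Genes at an unadjusted p under 0.05 and higher numbered 907 with limma-voom quality weights and 833 with the cortical covariate, and 313 to 726 with a library left out, the fewest without saline library 5. Lower genes numbered 901 with the cortical covariate and 389 to 768 with a library left out. DESeq2 calls numbered 81 with the cortical covariate, 10 without the 3 most cortical libraries and 0 to 95 with a library left out. With DESeq2, the differences from the NAc at 1 day, the VTA and the PFC gave 12, 13 and 1 calls. The log2 fold change of Nr4a1 turned to -0.027 without the 3 most cortical libraries and lay between -0.090 (without cocaine library 6) and 0.32 with a library left out. No other named gene reversed under the alternatives run. The cause of these changes was not tested. Sex as a covariate was not run, since all 12 libraries expressed Y-linked genes. Genes near 1 CPM and small log2 fold changes are at the limit of 6 libraries a group.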

Other observations

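Genes on the X chromosome were looked at after the values were seen. Of 655 tested, 59 were higher at an unadjusted p under 0.05 (9.01%, against 3.34% of all genes) and 18 lower (2.75%), with a median log2 fold change of 0.04. Among the 59 were Magee2, Maged1, Pja1, Gm5124 and Igsf1. Magee2 and Maged1 enter both this count and that of the MAGE family. With the GC correction 52 of 503 were higher (10.3%, against 4.01% of all genes), and with the cortical covariate 47 of 655 (7.18%, against 5.11%). With a library left out the higher count was between 32 (without saline library 5) and 79 (without saline library 2). In the VTA at 28 days, 58 of 684 were higher (8.48%, against 5.08% of all genes), and it was not tested whether the libraries of both regions came from the same mice. In the PFC at 28 days, 26 of 660 were higher (3.94%, against 2.69%). The NAc at 1 day had 15 of 629 higher (2.38%, against 2.76%), no excess over all genes.

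The counts also varied with the GC content of the transcripts. In the fifth of genes with the least GC, 119 were higher and 39 lower at an unadjusted p under 0.05, and in the fifth with the most GC 56 were higher and 166 lower. Saline library 1 had the largest deviation of high-GC genes, 0.156 on the log2 scale. The part of GC content in the single results was not tested beyond the correction.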
